A study of Homo sapiens with 6 samples.

Results

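GATA2, TAL1, LYL1, LMO2, ERG and FLI1 are 6 of the 7 transcriptional regulators of the stem cell heptad, the seventh being RUNX1. The chromatin at and around their own genes was followed in 6 windows of the genome, one per gene, placed around it by position in hg19. The windows were chr3:128150000-128370000 for GATA2, chr1:47630000-47750000 for TAL1 and chr19:13190000-13240000 for LYL1. For LMO2 it was chr11:33850000-34000000, for ERG chr21:39700000-40080000 and for FLI1 chr11:128510000-128730000, which makes 1140 kb in all. They held 367 of the 145457 peaks of the series. RUNX1 sites numbered 26 of 10319 in AI-10-49 and 8 of 1701 in DMSO, and H3K27ac regions 170 of 66350 in AI-10-49 and 163 of 67087 in DMSO.

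The cells were ME-1, an established human leukemia line with inv(16), the inversion that fuses CBFB to MYH11 and makes CBFβ-SMMHC. They received for 6 h either AI-10-49 at 1 µM, an inhibitor of the contact between CBFβ-SMMHC and RUNX1, or its solvent DMSO. Both groups are the same line and carry the fusion, which these peak lists cannot check. Each antibody (RUNX1 or H3K27ac, a histone mark of active promoters and enhancers) and condition had 1 library, so the spread between replicates is unknown and no difference was tested. The libraries held 31.5 M (AI-10-49) and 33.8 M (DMSO) reads for RUNX1 and 37.0 M (AI-10-49) and 35.7 M (DMSO) reads for H3K27ac, as recovered from the peak lists. Values are fragments over a peak's summit per M reads of its library, with exact Poisson intervals, and ratios are AI-10-49 over DMSO with exact binomial intervals. All intervals are 95%, and those on fragment numbers cover counting error only. The lists hold called peaks only, so a peak of 1 list has no value in the other.

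The heptad proteins bind together at enhancers of blood stem and progenitor cells, often at each other's genes, in a circuit in which the factors maintain their own expression. RUNX1 is a DNA-binding factor of the Runt family that acts with CBFβ, and GATA2 is a zinc-finger factor needed by blood stem cells. TAL1 and LYL1 are related basic helix-loop-helix proteins that bind E-box letters with a partner. LMO2 binds no DNA itself and bridges TAL1 or LYL1 to GATA factors. ERG and FLI1 are closely related ETS factors of blood and endothelium.

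The letters these families read were looked for in the genes' promoters, 250 bases before to 50 after the start of transcription, from RefSeq (GRCh38.p14). Entries were found for 4 of the 6 genes: 2 for GATA2, 2 for TAL1, 1 for LYL1 and 4 for ERG. LMO2 and FLI1 are named only. The letters searched, on both strands, were TGTGGT for RUNX, AGATAA for GATA factors, the E-box CANNTG and GGAA for ETS. None of these contains another. Of 35116 promoters of this length, 13.1% held the RUNX letters, 10.3% the GATA letters, 68.7% an E-box and 95.5% GGAA. RUNX letters were found in 1 of the 9 entries, a TAL1 promoter that held 3 copies. As many were held by 0.125% of all promoters. GATA letters were found in the other TAL1 promoter, in that of LYL1 and in 2 overlapping ERG entries. These are shown because they hold letters of RUNX1 or of a heptad partner, in the direction of transcription, with RUNX and GATA letters in capitals:
TAL1 chr1:47231666-47231965 (minus strand): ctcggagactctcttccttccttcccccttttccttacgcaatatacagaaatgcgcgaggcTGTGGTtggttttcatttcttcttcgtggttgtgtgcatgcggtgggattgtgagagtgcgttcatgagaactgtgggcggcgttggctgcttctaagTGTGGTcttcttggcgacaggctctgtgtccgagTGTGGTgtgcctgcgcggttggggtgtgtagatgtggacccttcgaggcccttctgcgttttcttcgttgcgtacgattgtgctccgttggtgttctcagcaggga
TAL1 chr1:47232286-47232585 (minus strand): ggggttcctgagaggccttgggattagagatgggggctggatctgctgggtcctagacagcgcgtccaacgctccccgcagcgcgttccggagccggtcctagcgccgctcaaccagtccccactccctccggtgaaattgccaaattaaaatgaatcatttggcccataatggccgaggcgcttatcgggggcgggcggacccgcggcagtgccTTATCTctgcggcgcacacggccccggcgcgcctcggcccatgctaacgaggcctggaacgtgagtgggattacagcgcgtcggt
LYL1 chr19:13102809-13103108 (minus strand): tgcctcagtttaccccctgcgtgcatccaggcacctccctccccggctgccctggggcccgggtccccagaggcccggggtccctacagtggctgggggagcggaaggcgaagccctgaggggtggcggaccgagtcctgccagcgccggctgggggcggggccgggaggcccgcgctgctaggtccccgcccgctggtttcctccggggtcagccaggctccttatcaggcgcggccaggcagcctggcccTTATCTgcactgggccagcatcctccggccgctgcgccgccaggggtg
ERG chr21:38498428-38498727 (minus strand): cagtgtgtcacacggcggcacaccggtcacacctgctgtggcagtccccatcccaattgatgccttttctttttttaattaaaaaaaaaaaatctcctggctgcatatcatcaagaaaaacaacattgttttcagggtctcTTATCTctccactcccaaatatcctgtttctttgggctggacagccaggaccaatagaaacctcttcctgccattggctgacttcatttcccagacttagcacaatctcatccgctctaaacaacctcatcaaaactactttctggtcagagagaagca
The last 3 entries each hold the GATA letters once, read as TTATCT on the strand shown. Neither GATA2 entry held RUNX or GATA letters. The peaks are in hg19, for which no sequence was at hand, so it was not examined whether these promoters lie under a RUNX1 site, and no peak was called exonic, intronic or intergenic. By gene order in the RefSeq table, GATA2 lies between DNAJB8 and RPN1, TAL1 between PDZK1IP1 and STIL and LYL1 between NFIX and TRMT1. LMO2 lies between FBXO3 and CAPRIN1, ERG between KCNJ15 and ETS2, and FLI1 between ETS1 and KCNJ1. Peaks were assigned to a locus by position only. Whether a window also covers part of a neighbouring gene was not examined, so a peak in it need not belong to the named gene.

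RUNX1 was called at more sites in AI-10-49 than in DMSO at every locus. GATA2 held 7 sites in AI-10-49 and 4 in DMSO, LYL1 5 and 1, LMO2 3 and 2, and FLI1 5 and 1. ERG held 5 sites in AI-10-49 and 0 in DMSO, and TAL1 1 and 0. In all the ratio of site numbers was 3.25, against 6.07 for the whole lists. The AI-10-49 list is the longer one: among its first 1701 sites by −log10 q, as many as the DMSO list holds, the 6 loci had 6 sites, fewer than the 8 in DMSO, which turns the direction. Per 100 H3K27ac regions of DMSO there were 16.0 AI-10-49 RUNX1 sites in the 6 loci and 15.4 in the genome. More RUNX1 on the chromatin and a higher yield of the precipitation cannot be told apart with 1 library each, nor can more cells with a mark and more of it per cell. By locus the number per 100 regions ran from 62.5 at LYL1 and 25.9 at GATA2 to 8.33 at TAL1, with FLI1 (12.2), LMO2 and ERG in between.

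**Figure D1:**
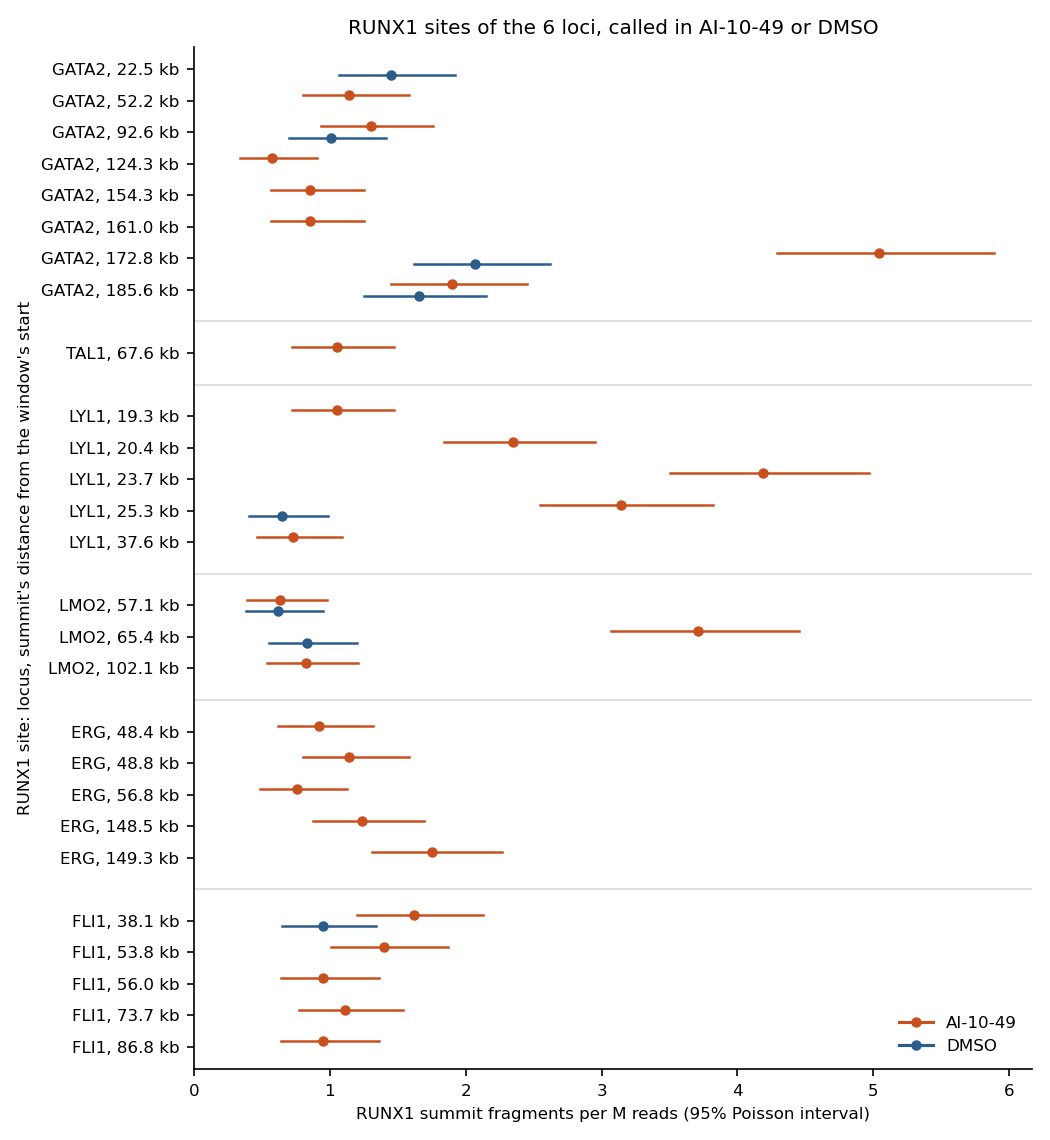
Summit fragments per M reads (horizontal axis) at each RUNX1 site of the 6 loci, in AI-10-49 (orange) and in DMSO (blue), with 95% Poisson intervals. Sites are labelled by the distance of their summit from the window's start, and a missing colour means that the list has no site there. The 4 highest values, from 3.14 to 5.04, are all of AI-10-49 and lie at GATA2, LYL1 and LMO2.

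Of the 8 DMSO sites 7 (87.5%, exact Clopper-Pearson interval 47.3 to 99.7) overlapped an AI-10-49 site, against 91.2% of all DMSO sites. At these 7 the summit count per M reads was 1.02 to 4.82 times as high in AI-10-49, with a median of 1.71, against 2.1 over the 1551 shared sites of the genome. A ratio of at least 2 was found at 3 of the 7, against 53.2% genome-wide, so the 6 loci as a group did not stand above the rest of the list. This rests on GATA2, which holds 3 of the 7: without it the median of the remaining 4 was 3.09.

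At GATA2, the strongest RUNX1 site of all 6 loci was chr3:128322406-128323261 (hg19, interval of the AI-10-49 list, as for all shared sites). It held 5.04 fragments per M reads (4.29 to 5.89) in AI-10-49 and 2.07 (1.62 to 2.62) in DMSO, a ratio of 2.43 (1.83 to 3.27). By −log10 q it ranked 71 of 10319 in AI-10-49 and 61 of 1701 in DMSO, so it was among the foremost sites of both lists. The other shared GATA2 sites had smaller ratios. At chr3:128335485-128335780 the values were 1.9 in AI-10-49 and 1.66 in DMSO, a ratio of 1.15 (0.784 to 1.68). At chr3:128242498-128242767 they were 1.3 in AI-10-49 and 1.01 in DMSO, a ratio of 1.29 (0.8 to 2.1). The intervals of both ratios include 1. Among shared sites with a DMSO count within 1.5 times of their own, whose median ratios were 1.99 to 2.08, the 3 sites lay at percentiles 65.5, 14.1 and 18.6.

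LYL1 and LMO2 each had a site with a larger ratio. At chr19:13215068-13215544, in the LYL1 window, RUNX1 had 3.14 fragments per M reads in AI-10-49 and 0.651 in DMSO, a ratio of 4.82 (3.02 to 8.04). At chr11:33915156-33915813, in the LMO2 window, it had 3.71 in AI-10-49 and 0.829 in DMSO, a ratio of 4.48 (2.94 to 7.03). Among shared sites of similar DMSO count they stood at percentiles 92.1 and 90.5, and their intervals stay above the median ratio of those sites (2.19 and 2.09). The other shared LMO2 site was weak: chr11:33906904-33907123 had nearly equal values of 0.635 in AI-10-49 and 0.622 in DMSO. Its ratio of 1.02 (0.525 to 1.98) was at percentile 5.04.

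The FLI1 site chr11:128548016-128548232 had 1.62 fragments per M reads in AI-10-49 and 0.947 in DMSO, a ratio of 1.71 (1.08 to 2.75) at percentile 36.2. By the authors' fold enrichment over local background its ratio was 1.04 (5.7 in AI-10-49 and 5.47 in DMSO). The background the peak caller used there was 4.06 times its list's lowest in AI-10-49 and 2.7 times in DMSO. At the other 6 shared sites the fold enrichment was higher in AI-10-49 by 1.46 to 3.88 times.

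The 1 DMSO site without an AI-10-49 partner was chr3:128172383-128172676, in the GATA2 window. Its summit carried 49 fragments, or 1.45 per M reads, at a fold enrichment of 5.58. From the nearest AI-10-49 site it was 29.4 kb away. No other RUNX1 site of the 6 loci, in either list, lay outside the H3K27ac regions of both conditions.

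AI-10-49-only sites made up 19 of the 26 (73.1%, 52.2 to 88.4), against 85.1% of the AI-10-49 list. The foremost lay at LYL1, where 3 of them crowd with the shared site into a single acetylated region. Strongest was chr19:13213487-13214379, with 132 fragments, 4.19 per M reads and a fold enrichment of 19.4, ranked 270 of 10319 by −log10 q. It was 0.877 kb from the DMSO site of LYL1, so it counts as shared if a margin of 1 kb is allowed. Next came chr19:13210199-13210622 with 74 fragments and a fold of 13.2, and chr19:13208866-13209475 with 33 fragments. The remaining LYL1 site, chr19:13227459-13227672, stood apart in another acetylated region (23 fragments, fold 5.28).

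ERG had RUNX1 sites only in AI-10-49, in 3 places. A pair lay side by side at chr21:39849131-39849477 (55 fragments, 1.75 per M reads, fold 9.82) and chr21:39848444-39848683 (39 fragments, 1.24 per M reads, fold 5.85). Another pair, chr21:39748702-39748937 and chr21:39748226-39748461, had 36 and 29 fragments and folds of 10.1 and 8.57. The fifth, chr21:39756719-39756933, had 24 fragments. The nearest DMSO RUNX1 site was 508 to 609 kb away. TAL1 likewise had 1 site, chr1:47697475-47697762, with 33 fragments (1.05 per M reads) and a fold of 5.97, and the nearest DMSO site was 2559 kb from it. The DMSO list holds only 1701 sites in the whole genome, and 85.1% of all AI-10-49 sites had no DMSO site. That share lies within the interval at ERG (5 of 5, 47.8 to 100). The absence in DMSO is thus not shown to be particular to ERG or TAL1.

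FLI1 had 4 AI-10-49-only sites, led by chr11:128563750-128563988 (44 fragments, 1.4 per M reads, fold 4.78) and chr11:128565816-128566047 (30 fragments, 0.952 per M reads, fold 4.25). Its folds were low for these counts, and the median background at its AI-10-49 sites was 4.06 times the list's lowest, against 1.86 over the whole list. At chr11:128583543-128583780, 35 fragments stood over a background 6.95 times the lowest, for a fold of 2.43. LMO2 had 1 such site, chr11:33951990-33952176 (26 fragments, fold 4.86). Of the 4 at GATA2, chr3:128202049-128202362 had 36 fragments and a fold of 7.78, and chr3:128274168-128274407 had 18 fragments and a fold of 4.48.

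The paralogues TAL1 and LYL1 held unequal numbers of AI-10-49 RUNX1 sites, 5 in the 50 kb window of LYL1 and 1 in the 120 kb of TAL1. ERG and FLI1 held 5 each, and the strongest had 1.75 fragments per M reads (1.31 to 2.27) at ERG and 1.62 (1.2 to 2.13) at FLI1, which overlap.

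**Figure D2:**
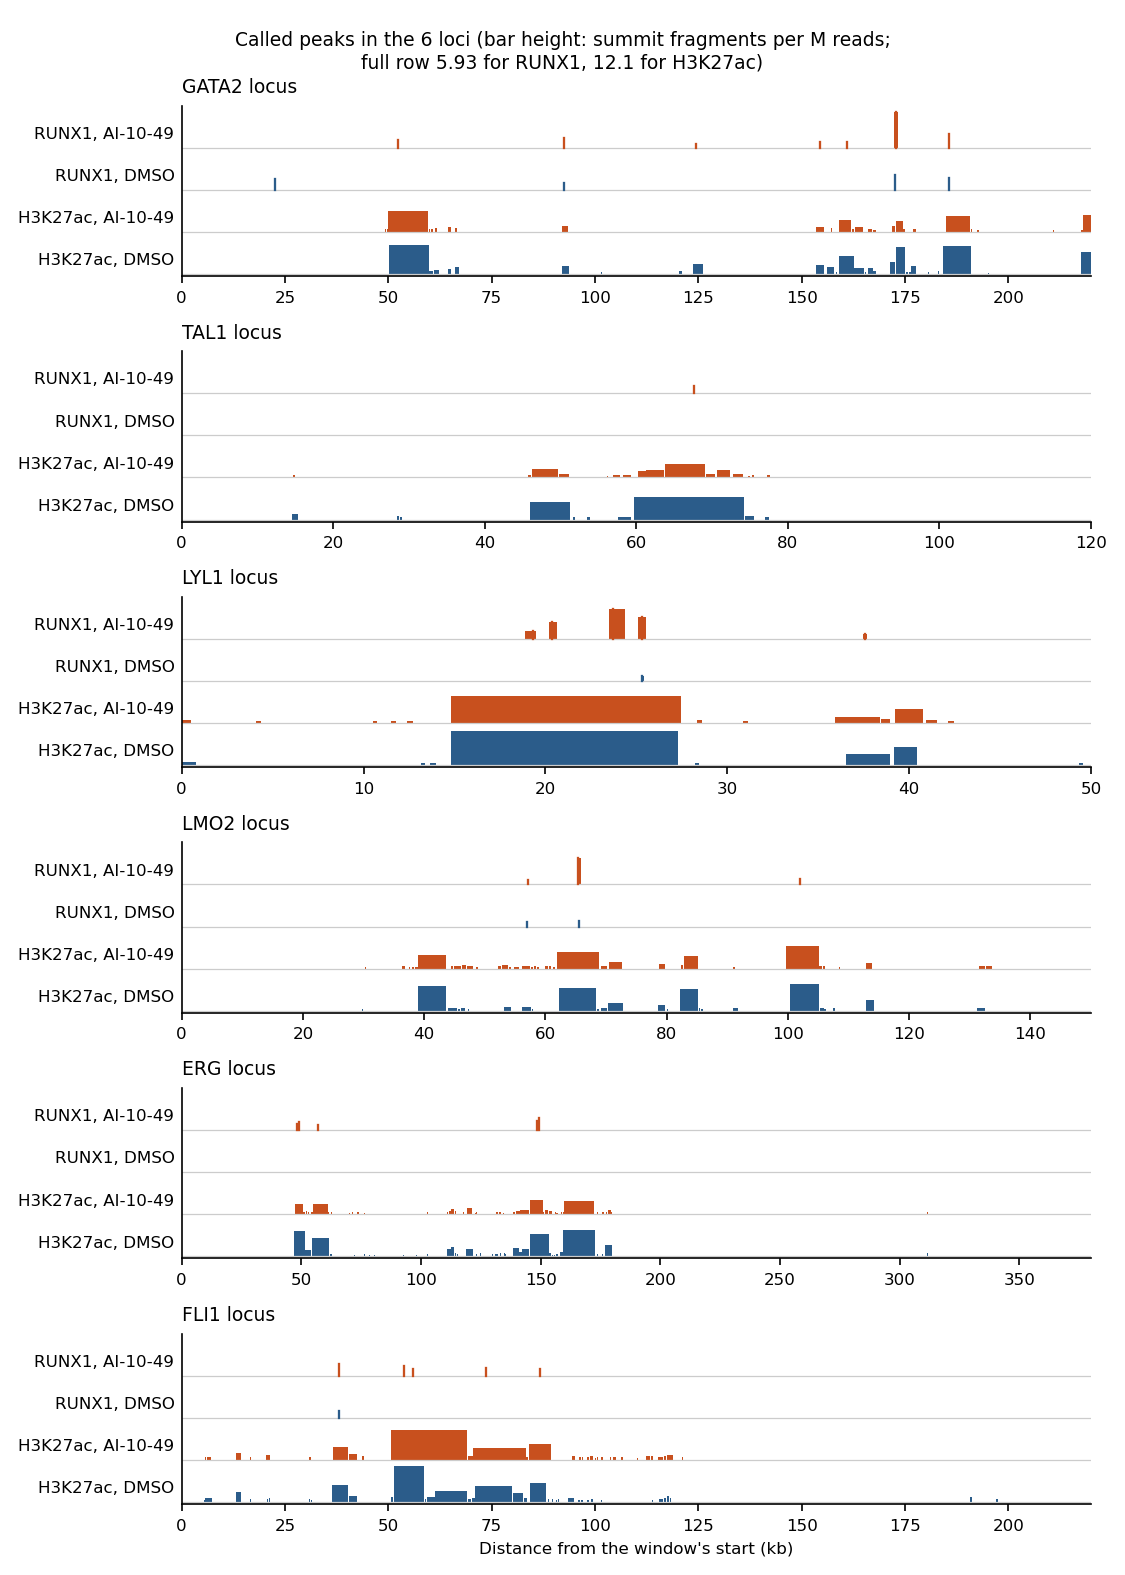
Called peaks of the 4 lists in each window, with the AI-10-49 rows (orange) above the DMSO rows (blue) for each antibody. The horizontal axis is the distance from the window's start in kb, bar width is peak width and bar height is summit fragments per M reads, on 1 scale per antibody. RUNX1 sites stand over acetylated regions in every window, ERG and TAL1 have an empty DMSO RUNX1 row, and the right part of the ERG window is nearly bare.

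The RUNX1 sites lay in chromatin that was acetylated in both conditions. Of the 26 AI-10-49 sites 25 (96.2%, 80.4 to 99.9) overlapped an AI-10-49 H3K27ac region, against 86.1% of the list, and 26 (86.8 to 100) overlapped a DMSO region, against 89.8%. Summits were inside an AI-10-49 region for 24 (92.3%, 74.9 to 99.1), against 68.4% genome-wide. Both exceptions were at GATA2. The strongest site is among them: its AI-10-49 summit stood in a gap between acetylated regions, 262 bp wide in AI-10-49 and 198 bp in DMSO. The other, chr3:128274168-128274407, lay in an H3K27ac region of DMSO only, so no acetylation was called there in AI-10-49.

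H3K27ac covered 230 kb of the windows in AI-10-49 and 243 kb in DMSO (20.2% and 21.3% of the sequence), a ratio of 0.949, against 0.908 over the genome. The loci went both ways. GATA2 had 35.7 kb in AI-10-49 and 45.7 kb in DMSO (ratio 0.78), ERG 55.1 and 66.0 kb (0.835) and TAL1 21.5 and 25.2 kb (0.851). LYL1 had 20.2 kb in AI-10-49 and 17.9 kb in DMSO (1.13), LMO2 39.1 and 34.5 kb (1.13) and FLI1 58.7 and 53.3 kb (1.1).

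Wide regions were frequent in these windows. Regions of at least 5 kb made up 7.06% (12 of 170) of the AI-10-49 regions and 7.36% (12 of 163) of the DMSO regions, against 1.35% and 1.62% of the whole lists, and each of the 6 loci had at least 1 in each condition. The widest was chr11:128560701-128579018 at FLI1 in AI-10-49, of 18.3 kb. The widest DMSO region was chr1:47689702-47704184 at TAL1, of 14.5 kb. ERG had a region of 12.4 kb in AI-10-49 and 13.3 kb in DMSO (chr21:39859218-39872551), LYL1 one of 12.6 kb and 12.5 kb (chr19:13204813-13217275), and GATA2 one of 9.75 kb and 9.59 kb (chr3:128200144-128209734). At LMO2 the widest had 7.02 kb in AI-10-49 and 6.22 kb in DMSO (chr11:33912188-33918407). The widest FLI1 region in DMSO, chr11:128581089-128589894, had 8.81 kb. Except for the 18.3 kb FLI1 region, the positions given are those of the DMSO list.

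Because a region whole in a list can be in pieces in the other, regions that touch were joined into domains, and the strongest summit of each list in a domain was compared. The 6 loci had 184 domains: 93 shared, 43 found only with AI-10-49 and 48 found only with DMSO. In the 93 the median ratio was 0.781 (0.394 to 1.74), against 0.785 over the 41648 domains of the genome in both lists. The strongest summit was higher in AI-10-49 in 17 of 93 (18.3%), against 27.9% genome-wide, and at least 2-fold lower in 8 (8.6%), against 11.4%. The counting interval was wholly below 1 in 36 domains (38.7%), against 37.6% genome-wide, and wholly above 1 in 0, against 2.3%. By fold enrichment the median of the 93 was 0.909, against 0.878 genome-wide, and 54 (58.1%) were lower in AI-10-49, against 61.6%. The interval of the share higher in AI-10-49 ended just below the genome-wide share. Those of the other shares of the 93 include the genome-wide value.

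**Figure D3:**
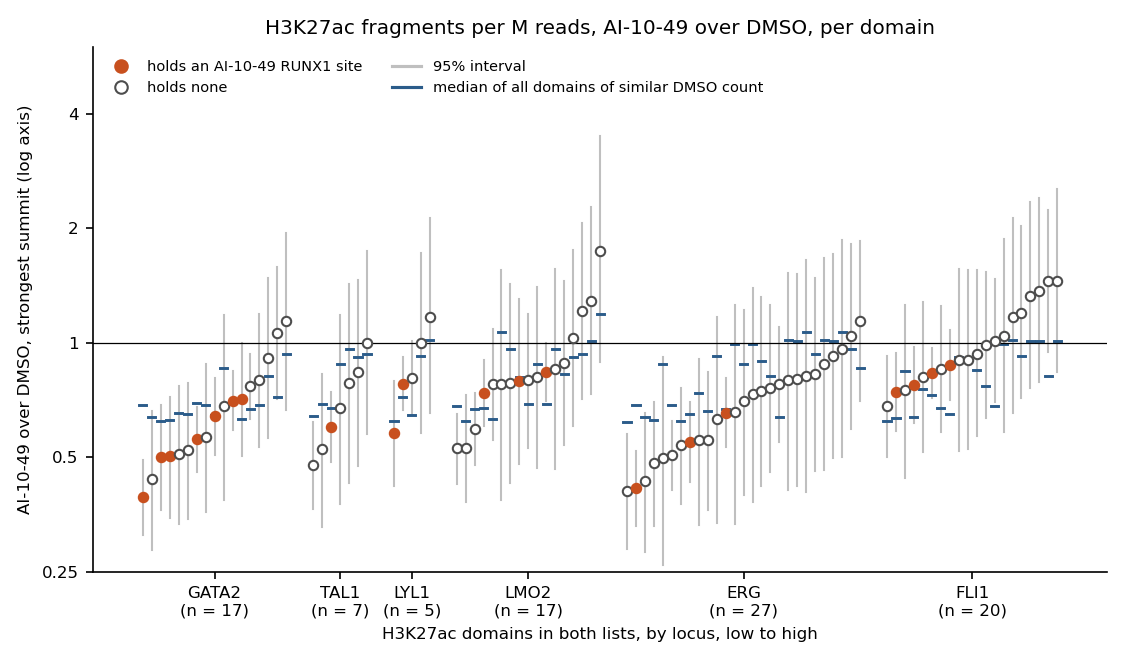
Ratio of the strongest H3K27ac summit, AI-10-49 over DMSO, on a log axis for the 93 domains in both lists, ordered within each locus. Filled points hold an AI-10-49 RUNX1 site, grey lines are 95% intervals, and blue bars give the median ratio of all domains of the genome with a DMSO count within 1.5 times. All filled points lie under 1, most ERG points lie under their blue bar and most FLI1 points above it.

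Domains with an AI-10-49 RUNX1 site had less H3K27ac at their strongest summit in AI-10-49 in 20 of 20 cases (median ratio 0.679, 0.394 to 0.874), against 87.8% genome-wide. The 73 without had a median of 0.804, and 56 were lower and 17 higher. Over all shared domains of the genome, with or without a site, 27.9% were higher. Domains with a site were wider (median 5.46 kb, against 0.997 kb). Counted as DMSO regions in both lists, the 20 with a site had a median of 5.93 fragments per M reads, against 0.925 in the 95 without. Some of these 95 are weak pieces of domains that hold a site. By class of DMSO count, the genome-wide median ratio was 1.1 for domains under 30 fragments, 0.718 from 30 to 100 and 0.649 from 100 up. The fall did not go on at high counts. Domains within 1.5 times of 110 DMSO fragments had a median of 0.621, and those within 1.5 times of 369 had 0.729. Genome-wide domains of a DMSO count similar to any of the 20 had median ratios of 0.621 to 0.814. Of the 20, 11 lay below the median of domains of similar DMSO count, so they were placed about evenly among these. By fold enrichment 12 of the 20 were lower in AI-10-49, against 63.9% genome-wide.

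Strong summits were close to the highest count the reads allow. If each position and strand holds at most 1 read, as after removal of duplicates, a summit can carry no more than 2 times the fragment length. That is 420 fragments in AI-10-49 and 384 in DMSO for H3K27ac, and the highest summits of the lists had 401 and 383. A count near the ceiling is a lower bound of the signal. For the 11 shared domains whose DMSO summit was above 60% of the ceiling, its share of the ceiling and a ratio corrected by Poisson occupancy, an estimate chosen after the data were seen, are given below. The 11 corrected ratios ran from 0.263 to 0.699. Their uncorrected ratios were already below 1 and the DMSO summit was nearer its ceiling in each. The correction could therefore only lower them, and that all are below 1 is no further result. Over all shared domains of the genome the median was 0.751 corrected and 0.785 uncorrected.

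At GATA2 the acetylation beside the strongest RUNX1 site had the lowest ratio of all 93 domains. At chr3:128322900-128325010 there were 3.0 H3K27ac fragments per M reads in AI-10-49 and 7.62 in DMSO, a ratio of 0.394 (0.313 to 0.493). Domains of similar DMSO count had a median of 0.688, and 2.57% of them were lower. The summits reached 26.4% of the ceiling in AI-10-49 and 70.8% in DMSO, and the corrected ratio was 0.263. Fold enrichments were closer, 14 in AI-10-49 and 15.3 in DMSO, over a background 2.33 and 6.62 times the lowest of each list. The domain on the other side of the RUNX1 summit, chr3:128321294-128322701, had 1.7 in AI-10-49 and 3.39 in DMSO, a ratio of 0.502 (0.364 to 0.687). GATA2 is known to have a distal blood enhancer on the side of RPN1; whether it lies here was not examined.

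Elsewhere at GATA2 the main domain, chr3:128199957-128209734, had 5.89 in AI-10-49 and 8.38 in DMSO, a ratio of 0.704 (0.588 to 0.841) at percentile 50.6. It reached 51.9% of the ceiling in AI-10-49 and 77.9% in DMSO, and the corrected ratio was 0.512. The domain chr3:128334238-128341002, which holds a RUNX1 site with a ratio near 1, had 4.49 in AI-10-49 and 8.04 in DMSO (0.558, 0.458 to 0.678), at 39.5% of the ceiling in AI-10-49 and 74.7% in DMSO, with a corrected ratio of 0.386. In all, 15 of 17 shared GATA2 domains were lower in AI-10-49 (median 0.642). By fold enrichment 14 of 17 (82.4%, 56.6 to 96.2) were, against 61.6% of all domains. The share higher in AI-10-49 was 11.8% (1.46 to 36.4), against 27.9% genome-wide. Both intervals include the genome-wide share.

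**Figure D4:**
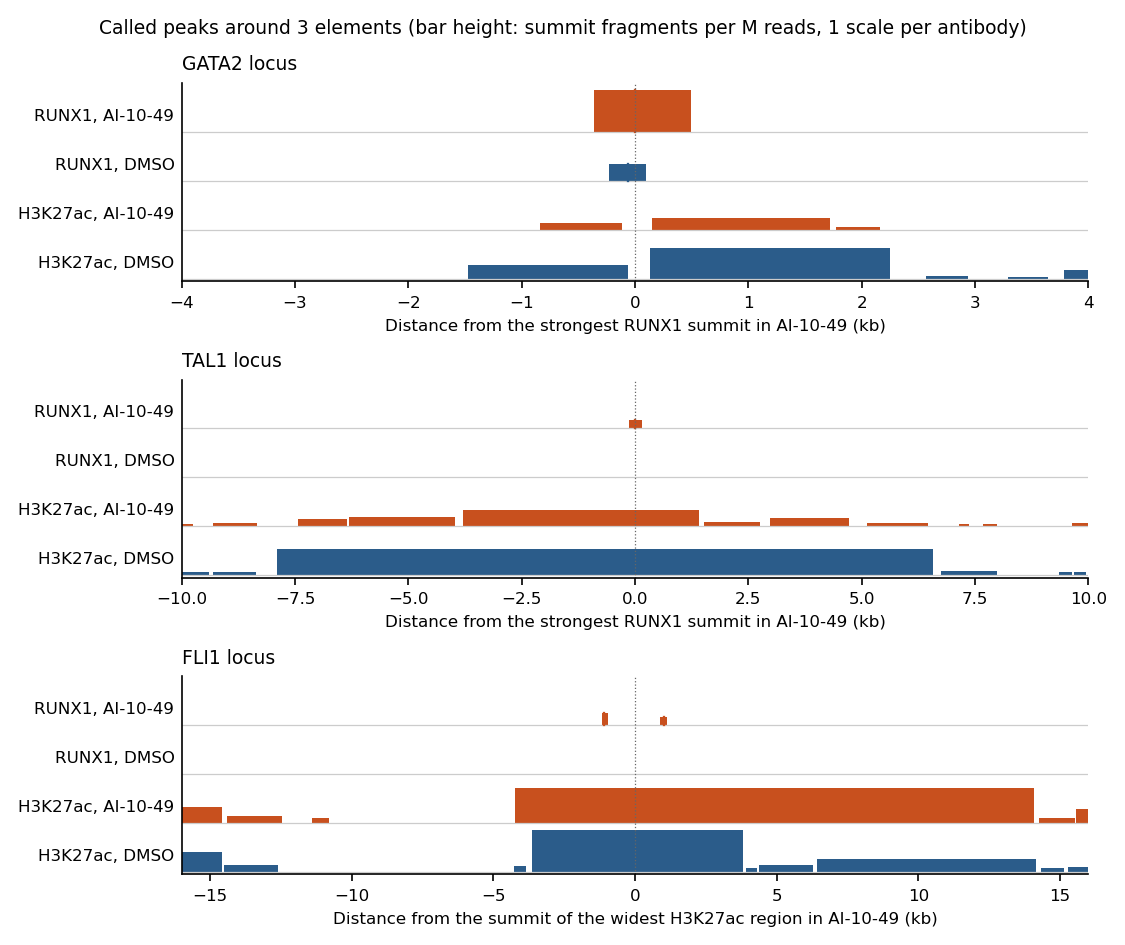
Called peaks around the strongest RUNX1 summit in AI-10-49 at GATA2 and TAL1 and around the summit of the widest H3K27ac region in AI-10-49 at FLI1, with distance in kb, AI-10-49 in orange above DMSO in blue. The GATA2 summit stands in a gap of H3K27ac in both conditions. The 14.5 kb TAL1 region of DMSO is in 6 pieces in AI-10-49, and the 18.3 kb FLI1 region of AI-10-49 spans 5 DMSO regions.

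ERG had 5 of the 8 domains that were at least 2-fold lower in AI-10-49. These were 18.5% (6.3 to 38.1) of its 27 shared domains, against 11.4% genome-wide, and the interval includes that share. Of the 27, 25 were lower in AI-10-49 (median 0.702). The share higher in AI-10-49 was 7.41% (0.91 to 24.3), against 27.9% genome-wide. By fold enrichment 18 (66.7%) were lower, against 61.6% of all domains. Below the median of domains of similar DMSO count lay 24 of the 27. At chr21:39746793-39751421, which holds 2 of the RUNX1 sites, H3K27ac had 3.06 in AI-10-49 and 7.37 in DMSO, a ratio of 0.415 (0.33 to 0.519) at percentile 3.8. The summits were at 26.9% of the ceiling in AI-10-49 and 68.5% in DMSO, with a corrected ratio of 0.286. The fold enrichment there was slightly higher in AI-10-49, 23.2 against 20.9, over backgrounds 1.24 and 4.55 times the lowest. At chr21:39877033-39879805 the values were 1.32 in AI-10-49 and 3.25 in DMSO (0.408, 0.286 to 0.574). The 13.3 kb domain chr21:39859218-39872551, without a RUNX1 site, had 3.79 in AI-10-49 and 7.48 in DMSO (0.506, 0.409 to 0.623), at 33.3% of the ceiling in AI-10-49 and 69.5% in DMSO, and a corrected ratio of 0.36. Its folds were 28.2 in AI-10-49 and 28.3 in DMSO, so fragments and folds part there as well. Domains called in 1 list only were short at ERG: 5 of AI-10-49 had a median of 0.246 kb and 19 of DMSO had a median of 0.259 kb.

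FLI1, the paralogue of ERG, lay on the other side. Of its 20 shared domains 12 were lower in AI-10-49 (median 0.92), and 2 lay below the median of domains of similar DMSO count. Summits were higher in AI-10-49 in 40.0% (19.1 to 63.9), against 27.9% genome-wide. By fold enrichment 6 of 20 were lower, against 61.6% of all domains, with a median of 1.22. Its strongest domain, chr11:128560668-128579077, had 8.62 in AI-10-49 and 10.3 in DMSO, a ratio of 0.834 (0.716 to 0.972). It reached 76.0% of the ceiling in AI-10-49 and 96.1% in DMSO, and the corrected ratio was 0.464, so this value rests on how the ceiling is treated. In DMSO the same stretch was called as 5 regions. Paired region by region, its weak DMSO pieces give ratios of 5.6 to 10.3, since all take the same AI-10-49 summit, and these ratios are no measure of raised acetylation.

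At TAL1 all 7 shared domains were lower in AI-10-49 (median 0.673), while genome-wide 27.9% of shared domains were higher. By fold enrichment 3 of the 7 (42.9%) were lower, against 61.6% of all domains. With only 7 domains, the intervals of the share higher and of the share lower by fold both include the genome-wide value. The 14.5 kb DMSO region chr1:47689702-47704184 was called as 6 regions in AI-10-49, of which the widest had 5.22 kb. Its strongest summit had 3.95 in AI-10-49 and 6.56 in DMSO, a ratio of 0.602 (0.486 to 0.743), while the folds were 22.0 in AI-10-49 and 18.6 in DMSO. It reached 34.8% of the ceiling in AI-10-49 and 60.9% in DMSO, and the corrected ratio was 0.48. The domain chr1:47675702-47681220 had 2.38 in AI-10-49 and 4.99 in DMSO (0.477, 0.365 to 0.619), and its folds of 10.3 in AI-10-49 and 22.6 in DMSO went the same way. Such splitting was seen for 26 of the 163 DMSO regions (16.0%, against 13.2% genome-wide). The converse, an AI-10-49 region over several DMSO regions, was seen for 16 of 170 (9.41%, against 7.82%), 8 of them at FLI1.

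LYL1, the paralogue of TAL1, had a wide region that was called whole in both conditions. In chr19:13204813-13217437 the summit had 7.68 in AI-10-49 and 9.83 in DMSO, a ratio of 0.781 (0.665 to 0.916), at 67.6% and 91.4% of the ceiling, with a corrected ratio of 0.485. The folds went the other way, 26.6 in AI-10-49 and 16.8 in DMSO, over backgrounds 3.26 and 7.87 times the lowest. In chr19:13225948-13228976 the values were 1.78 in AI-10-49 and 3.08 in DMSO (0.579, 0.42 to 0.793).

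The LMO2 domain chr11:33911879-33918901, around the RUNX1 site with a ratio of 4.48, had 4.87 H3K27ac fragments per M reads in AI-10-49 and 6.58 in DMSO, a ratio of 0.739 (0.605 to 0.901). It reached 42.9% of the ceiling in AI-10-49 and 61.2% in DMSO, and the corrected ratio was 0.624. Its folds were 20.9 in AI-10-49 and 35.2 in DMSO. In chr11:33949649-33955116 the values were 6.52 in AI-10-49 and 7.79 in DMSO (0.837, 0.701 to 0.998), with folds of 33.4 in AI-10-49 and 17.7 in DMSO, 57.4% of the ceiling in AI-10-49 and 72.4% in DMSO, and a corrected ratio of 0.699. In chr11:33889015-33893648 they were 3.79 in AI-10-49 and 7.17 in DMSO (0.528, 0.426 to 0.651), at 33.3% of the ceiling in AI-10-49 and 66.7% in DMSO, with a corrected ratio of 0.39. The folds there were 11.7 in AI-10-49 and 20.4 in DMSO. In all, 13 of 17 shared LMO2 domains were lower in AI-10-49 (median 0.796). The share higher in AI-10-49 was 23.5% (6.81 to 49.9), against 27.9% genome-wide. By fold enrichment 12 (70.6%, 44.0 to 89.7) were lower, against 61.6% of all domains.

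Regions called in 1 list only were mostly weak. With AI-10-49 these were 43 of 170 regions (25.3%), against 21.0% of the list, and with DMSO 48 of 163 (29.4%), against 29.0%. AI-10-49-only regions were 16 of 38 at LMO2, 9 of 32 at FLI1, 7 of 13 at LYL1, 5 of 26 at GATA2, 5 of 45 at ERG and 1 of 16 at TAL1. DMSO-only regions were 19 of 50 at ERG, 10 of 27 at GATA2, 7 of 41 at FLI1, 5 of 25 at LMO2, 4 of 12 at TAL1 and 3 of 8 at LYL1. The strongest by −log10 q was chr3:128273633-128276250 at GATA2, a DMSO-only region of 2.62 kb with 101 fragments (2.83 per M reads), a fold of 13.6 and a −log10 q of 75.6. It holds the weak AI-10-49 RUNX1 site named above, and the nearest AI-10-49 H3K27ac region was 27.1 kb away. At FLI1 the foremost DMSO-only region, chr11:128700755-128701272, had 54 fragments and lay 69.5 kb from an AI-10-49 region. All other foremost regions of 1 list lay within 2.23 kb of a region of the other list. Those of AI-10-49 had 46 fragments at FLI1 (chr11:128553537-128554121), 31 at LMO2 (chr11:33982711-33983608) and 30 at LYL1 (chr19:13230909-13231524). GATA2 (chr3:128199111-128199489) had 29, ERG (chr21:39817576-39817818) 24 and TAL1 (chr1:47686091-47686300) 19. Those of DMSO had 31 fragments at ERG (chr21:39824569-39824979), 27 at TAL1 (chr1:47683540-47683863), 26 at LYL1 (chr19:13203681-13203978) and 24 at LMO2 (chr11:33935296-33935570). The lowest H3K27ac summits of the lists held 12 fragments in AI-10-49 and 9 in DMSO, so several of these lie not far above what could be called.

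The local background in the AI-10-49 H3K27ac regions was lower relative to the list's lowest than in the DMSO regions at each locus, with medians of 1.87 and 2.58 over the 6 loci and 1.57 and 1.91 over the lists. Some domains described above at TAL1, LYL1, LMO2, ERG and FLI1 had fewer fragments but a higher fold in AI-10-49. Others described at TAL1, LMO2, ERG and GATA2 had fewer fragments and a lower fold. In the described domains with a higher fold the background was 1.24 to 5.13 times the lowest in AI-10-49 and 3.31 to 7.87 times in DMSO. Fragments were also longer in AI-10-49 by 1.09 times for H3K27ac and 1.13 times for RUNX1.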

How the data were processed

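RUNX1 and H3K27ac were measured by ChIP-seq (sequencing of immunoprecipitated chromatin) in ME-1 cells, per the labels. Samples were grouped by their titles, with 1 library per antibody and condition, and the 2 input libraries were not analysed here. Per the submitters' processing notes, the tools were MACS2 2.1.0, Bowtie2 2.1.0, Picard 1.96, SAMtools 1.3 and CASAVA 1.4 and the build was hg19, while their settings are not given in the sources used here. Peak positions and summits come from the deposited lists. The deposited ratio is the authors' fold enrichment at the summit over local background, and the same lists hold the authors' −log10 p and −log10 q. The deposited score was not used.

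Summit fragments were recovered from fold enrichment and −log10 p, which MACS2 derives from the same scaled count and Poisson background. With the right scaling factor 100% of peaks in each list gave whole fragments to within 0.003 of their −log10 p, against 1.27% to 2.13% at other factors. The reads per library follow from the lowest background, an assumed genome size of 2700000000 bases and a fragment length equal to the shortest peak. This was 169 bp in AI-10-49 and 149 bp in DMSO for RUNX1, and 210 bp in AI-10-49 and 192 bp in DMSO for H3K27ac. The lowest summits listed had 12 and 11 fragments for RUNX1 and 12 and 9 for H3K27ac, in AI-10-49 and DMSO, which limits what a list can show. The recovery and the overlaps were tested on simulated data.

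A peak belongs to a locus if it overlaps the window by at least 1 bp. A DMSO peak was paired with the overlapping AI-10-49 peak with most fragments. Similar peaks are those in both lists with a DMSO summit count within 1.5 times. Positions are 1-based. The regions named are every DMSO RUNX1 site and, per locus, the 3 AI-10-49 RUNX1 sites with the highest −log10 q. Others are the widest H3K27ac region of each list, the foremost of 1 list only by −log10 q and the strongest in both lists, with the 3 highest and 3 lowest ratios at 30 or more DMSO fragments. Other regions, among them the further AI-10-49 RUNX1 sites and the domains without an extreme value, were named after their values were seen. The members and lists were chosen with earlier results of these data known. No test between conditions was made. Domains and the correction for the ceiling were added after the data were seen. Alternatives for window, overlap, threshold, partner and unit were tried. Tools were scipy 1.17.1, numba 0.67.0, pandas 2.3.3, matplotlib 3.10.9 and numpy 2.4.6 under Python 3.11.15.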

Additional observations from a re-analysis of the deposited data

How the results depend on the processing

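Of 92 alternative values for 8 results, 81 kept their direction and stayed close (a share within its counting interval, a ratio within 1.5 times), 9 moved and 2 turned the direction. The ratio of RUNX1 site numbers (3.25) was 0.75 with the AI-10-49 list reduced to the length of the DMSO list, since this drops most AI-10-49 sites. The median H3K27ac ratio over DMSO regions in both lists (0.815) was 1.02 by the authors' fold enrichment, and 0.781 by domains or 0.909 by fold enrichment in domains, both chosen after seeing the data. Leaving out GATA2, which holds 4 of the 8 DMSO RUNX1 sites, gave 100% for the share of DMSO RUNX1 sites overlapped (87.5%), 3.09 for the median RUNX1 ratio (1.71) and 100% for AI-10-49 RUNX1 sites in H3K27ac (96.2%). Requiring 50% of both intervals gave 40.5% and within 1 kb 84.7% for DMSO H3K27ac regions overlapped (70.6%), and 38.8% and 88.2% for AI-10-49 regions (74.7%). RUNX1 sites in H3K27ac came to 0% with 50% of both intervals, since regions are far wider than sites, and to 100% with a −log10 q of at least 5. The covered length ratio lay between 0.906 and 0.991. Of the alternatives that moved a value, the cause was not tested except where given. No paired analysis was possible because there was only 1 library for each antibody and condition. Depth limits single ratios: at 20 to 30 fragments the interval spans more than a 2-fold range.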
